A study of Mus musculus with 8 samples.

Results

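The genes described here are 9 enzymes of glycolysis, Hk1, Hk2, Gpi1, Pfkl, Aldoa, Pgk1, Eno1, Pkm and Ldha, together with Hif1a, the oxygen-regulated transcription factor subunit that controls many of them. They were chosen by name, and the 10 genes are among 20308 genes in the per-mouse count data. All 10 passed the filter on low counts, as did 13407 of the 20308 genes. RNA was sequenced from CD11b+ cells of 4 control mice and 4 CSF1 OE mice, with 1 library per mouse and no pooling. CSF1 is a growth and survival factor for microglia. In CSF1 OE mice a TRE-controlled transgene for secreted CSF1 was switched on by tTA in part of the GFAP+ cells, so that it was driven in cells other than those collected. The transgene also encodes EGFP. Mice of both groups were F1 animals of C57Bl/6 and CD1, were p14 or p15, and had their cells pulled down with CD11b-conjugated beads from the right brain hemisphere after myelin removal. Which transgenes, if any, the control mice carried is not given in the sources used here. The mice are called by their animal numbers, which are 1827, 1872, 1874 and 1934 for the controls and 1931, 1932, 1936 and 2019 for CSF1 OE.

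Glycolysis turns glucose into pyruvate in the cytosol and yields ATP without oxygen. Hexokinase traps glucose as a phosphate, the phosphofructokinase step commits it to the pathway, aldolase splits the sugar, and the lower steps return ATP at phosphoglycerate kinase and pyruvate kinase. Pyruvate then enters mitochondria or is reduced to lactate. Microglia and other macrophages use both fates, and activated macrophages are known for a high glycolytic rate. HIF1A protein is stabilised when oxygen is low, pairs with ARNT and binds short motifs in promoters of glycolytic genes, so that its activity is set largely at the protein level.

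The start-site sequences of 5 of the genes are shown because 4 of them, Hk1, Gpi1, Eno1 and Pkm, had the lowest p-values among the 10 genes and Ldha held the most matches to the HIF motif. They are RefSeq windows of 300 bases on GRCm38.p6, from 250 bases before to 50 bases after the most upstream RefSeq start, printed 5′ to 3′ on the strand of the gene. Capitals mark the letters ACGTG or GCGTG, the core of the HIF motif, read on either strand, and CACGTG holds a match on both strands. The windows lie at chr10:62379859-62380158 on the minus strand for Hk1, chr7:34230287-34230586 on the minus strand for Gpi1, chr4:150236458-150236757 on the plus strand for Eno1, chr9:59656326-59656625 on the plus strand for Pkm and chr7:46845554-46845853 on the plus strand for Ldha.
Hk1: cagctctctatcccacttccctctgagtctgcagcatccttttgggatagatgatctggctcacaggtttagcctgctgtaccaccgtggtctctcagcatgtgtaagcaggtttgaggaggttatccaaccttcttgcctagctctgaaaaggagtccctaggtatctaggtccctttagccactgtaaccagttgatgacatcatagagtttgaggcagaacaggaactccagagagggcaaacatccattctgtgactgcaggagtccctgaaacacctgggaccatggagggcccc
Gpi1: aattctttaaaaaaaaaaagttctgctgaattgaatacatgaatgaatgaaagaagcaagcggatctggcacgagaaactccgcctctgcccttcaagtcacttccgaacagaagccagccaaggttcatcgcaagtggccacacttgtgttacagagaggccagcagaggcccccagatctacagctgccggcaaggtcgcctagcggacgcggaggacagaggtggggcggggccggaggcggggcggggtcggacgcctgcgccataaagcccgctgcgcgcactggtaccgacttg
Eno1: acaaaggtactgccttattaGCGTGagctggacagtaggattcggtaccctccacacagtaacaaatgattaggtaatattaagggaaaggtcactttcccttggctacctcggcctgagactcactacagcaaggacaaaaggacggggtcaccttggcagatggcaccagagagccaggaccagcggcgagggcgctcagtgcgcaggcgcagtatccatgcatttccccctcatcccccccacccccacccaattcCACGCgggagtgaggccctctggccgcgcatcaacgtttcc
Pkm: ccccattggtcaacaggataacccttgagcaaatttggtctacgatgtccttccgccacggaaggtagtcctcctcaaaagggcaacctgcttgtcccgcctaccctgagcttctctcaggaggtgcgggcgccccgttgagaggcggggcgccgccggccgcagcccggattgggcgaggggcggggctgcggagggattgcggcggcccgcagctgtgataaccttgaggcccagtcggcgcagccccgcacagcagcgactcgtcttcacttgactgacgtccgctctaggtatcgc
Ldha: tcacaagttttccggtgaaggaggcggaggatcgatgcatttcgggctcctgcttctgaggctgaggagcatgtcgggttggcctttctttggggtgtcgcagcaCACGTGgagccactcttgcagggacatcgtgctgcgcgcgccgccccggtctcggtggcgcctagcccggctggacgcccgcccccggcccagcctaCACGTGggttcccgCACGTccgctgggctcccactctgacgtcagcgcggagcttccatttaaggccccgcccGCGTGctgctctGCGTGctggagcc

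The Ldha window held 7 matches in 5 separate runs of letters, of which both CACGTG runs count for both strands. The Eno1 window held 2 matches, and the first windows of Hk1, Gpi1 and Pkm held 0. Second windows, at other RefSeq starts of the same gene, held 5 matches for Hk1 and 2 for Pkm. Over the 10 genes, 13 of 17 windows had a match, and 9 of 10 genes had a match in some window, Gpi1 being the exception. Among all 32851 windows in the table, 43.8% had a match, and among tested genes with a window 66.6% had one. A match is a string of letters and was not tested as a bound site.

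Library totals ran from 12053259 to 15475465 counts. The 10 genes held between 495 and 8510 counts in a library. Levels are given as CPM, the counts of a gene relative to the library total after TMM scaling, and differences as log2 fold changes of CSF1 OE against control from edgeR's quasi-likelihood test, with their standard error (SE) and a p-value adjusted by the Benjamini-Hochberg method over the 13407 genes. A gene was called where the adjusted p was under 0.05 and the log2 fold change was below -0.52 or above 0.52, the fold thresholds of the study. Csf1 itself spread from 139 to 364 CPM in the controls and from 167 to 400 CPM in the CSF1 OE mice, which overlapped (log2 fold change 0.19, SE 0.334, adjusted p = 0.796). Its receptor Csf1r, a marker of microglia, was at 6563 to 11623 CPM in the controls and 9031 to 12128 CPM in the CSF1 OE group. All 10 homeostatic microglia markers were present in every library, with summed levels of 21514 to 38374 CPM in the controls and 27734 to 39175 CPM in the CSF1 OE group. Libraries also held RNA of other cells, since all 10 endothelial markers (427 to 1603 CPM in sum) and all 10 oligodendrocyte lineage markers (1577 to 6029 CPM in sum) were above 0 in all 8.

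None of the 10 genes was called, while 59 of the 13407 genes tested were called, which is 0.44%. Of the 10 genes, 9 had a higher mean and 1, Hk1, a lower mean in CSF1 OE than in control mice, with Pfkl among the 9 turning just below 0 with upper-quartile factors and with limma. Unadjusted p-values under 0.05 were found for 3 of the genes in the higher direction (Gpi1, Eno1 and Pkm), where 10.1% of all genes tested had one, and for 1 gene in the lower direction (Hk1), where the share was 6.44%. For 0 of the 10 genes did all 4 CSF1 OE mice lie above, or all below, all 4 control mice, against 6.84% of all genes for higher and 3.45% for lower values. The median log2 fold change of the 10 genes was 0.16, beside a median of -0.03 over all genes tested, whose 10th and 90th percentiles were -0.51 and 0.32. Differences of the 10 genes thus lay between -0.33 and 0.29 on the log2 scale, inside that range of all genes. The 95% interval of the log2 fold change lay wholly within these fold thresholds for 7 of the 10 genes, and reached past a threshold for Hk1, Eno1 and Pkm.

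**Figure D1:**
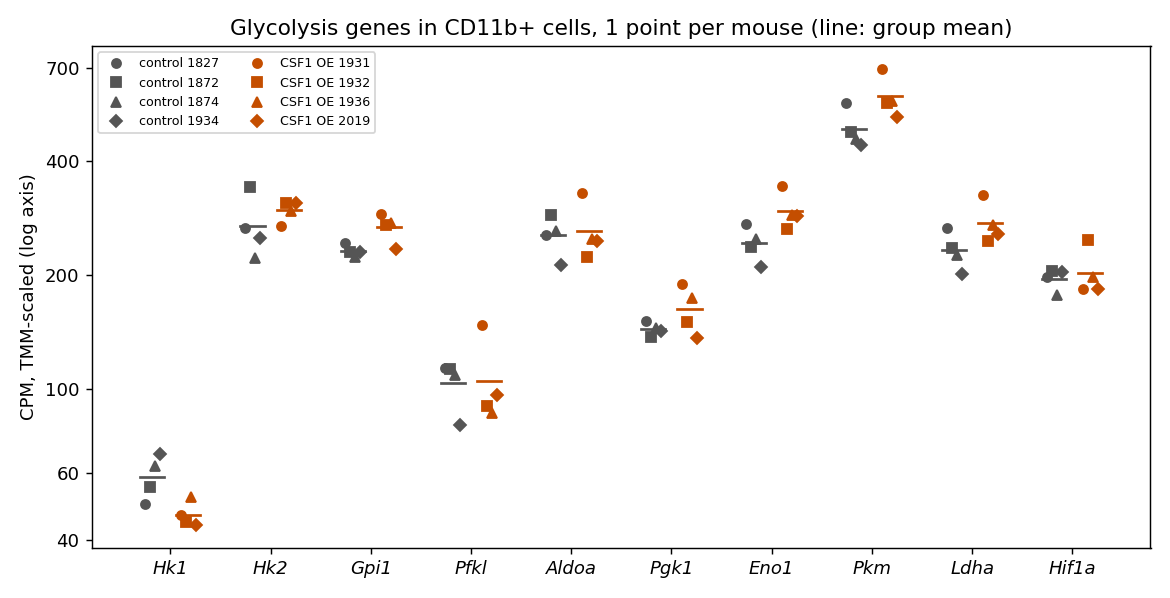
Level of each of the 10 genes in each mouse, in TMM-scaled CPM on a log axis; grey symbols are the 4 control mice, orange symbols the 4 CSF1 OE mice, and short lines the group means. The groups overlap for all 10 genes, CSF1 OE mouse 1931 (orange circle) is the highest of the 8 for 7 of the 9 enzymes, and control mouse 1934 (grey diamond) the lowest for 5.

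Glucose entry into the pathway was described by 2 hexokinases whose means differed in opposite directions. Hk1, the hexokinase of most tissues and of brain (chr10:62268855-62379908, this and the following spans from GENCODE M21 on GRCm38), had 49.8, 55.1, 62.6 and 67.3 CPM in control mice 1827, 1872, 1874 and 1934. CSF1 OE mice 1931, 1932, 1936 and 2019 had 46.5, 44.5, 51.7 and 43.8 CPM. A single CSF1 OE mouse, 1936, reached into the control range, above control mouse 1827. The means were 58.7 ± 7.78 CPM in the controls and 46.6 ± 3.58 CPM in the CSF1 OE group (SD, n = 4 each), a log2 fold change of -0.33 (SE 0.109, 95% interval -0.58 to -0.09, unadjusted p = 0.0140, adjusted p = 0.191, edgeR). Its unadjusted p stayed under 0.05 in all 15 alternative fits, and its adjusted p was under 0.05 in 1 of them, the fit with a term for animal numbers (0.0378), which sets mice 1931 to 1936 apart from the others. That fit called 9.5% of all genes, and Hk1 was not among them. The control mice with the most Hk1, 1874 and 1934, were also those with the highest summed levels of endothelial markers (1371 and 1603 CPM, against 918 and 902 CPM in mice 1827 and 1872) and of oligodendrocyte lineage markers (4420 and 6029 CPM, against 2929 and 2878 CPM). Among CSF1 OE mice, Hk1 was highest in mouse 1936 and lowest in mouse 2019, which had the highest and the lowest sums of both lists. The part of these cells in the Hk1 values was not tested, and in such bulk samples fewer cells of a type and less RNA per cell cannot be told apart.

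Hk2, the inducible hexokinase of insulin-responsive tissue and of activated immune cells (chr6:82725025-82774454), had 266, 340, 221 and 250 CPM in the control mice, in the same order as above. The CSF1 OE mice had 269, 309, 295 and 310 CPM. All 4 CSF1 OE values lay inside the control range, which control mouse 1872 set at the top and 1874 at the bottom. Group means were 270 ± 50.8 and 296 ± 19.0 CPM (SD, n = 4 each), and the log2 fold change was 0.14 (SE 0.132, 95% interval -0.16 to 0.43, adjusted p = 0.639). It was 0.27 without control mouse 1872, when the groups did not overlap (unadjusted p = 0.0327, adjusted p = 0.373), and 0.06 without control mouse 1874. The share of all genes that did not overlap without mouse 1872 was not counted.

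Gpi1, which converts glucose phosphate to fructose phosphate (chr7:34201330-34230336), varied little among the controls, at 242, 230, 223 and 229 CPM. In CSF1 OE mice it was at 289, 271, 274 and 234 CPM. The first 3 of these lay above all controls, and mouse 2019 lay within their range. The means of 231 ± 8.14 and 267 ± 23.4 CPM (SD, n = 4 each) gave a log2 fold change of 0.21 (SE 0.0855, 95% interval 0.02 to 0.40, unadjusted p = 0.0357, adjusted p = 0.264). The unadjusted p was under 0.05 in 8 of 15 alternative fits, as it was for Pkm.

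Pfkl, the liver-type phosphofructokinase of the committing step (chr10:77986947-78010083), was at 114, 113, 109 and 80.3 CPM in the control mice. CSF1 OE mice had 148, 89.9, 86.6 and 96.6 CPM. In each group 1 mouse stood away from the rest, control mouse 1934 below and CSF1 OE mouse 1931 above, and the other 3 CSF1 OE mice lay under the other 3 controls. The means, 104 ± 15.9 and 105 ± 28.6 CPM (SD, n = 4 each), gave a log2 fold change of 0.02 (SE 0.187, 95% interval -0.40 to 0.44, adjusted p = 0.966), and without CSF1 OE mouse 1931 it was -0.19 (adjusted p = 0.641).

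Aldoa, the aldolase of muscle and most other tissue (chr7:126795234-126800751), was at 254, 287, 262 and 213 CPM in the controls and 329, 223, 248 and 245 CPM in the CSF1 OE group. CSF1 OE mouse 1931 was again the highest, and the other 3 lay within the control range. With means of 254 ± 30.8 and 261 ± 46.7 CPM (SD, n = 4 each), its log2 fold change was 0.04 (SE 0.140, 95% interval -0.28 to 0.36, adjusted p = 0.899), and it was -0.09 without mouse 1931 and -0.02 without control mouse 1934. The retrogene copies Aldoart1 and Aldoart2 held 0 and 2 counts over the 8 libraries, against 28444 for Aldoa.

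Pgk1, which makes the first ATP of the lower pathway (chrX:106187100-106203699), was at 151, 137, 144 and 142 CPM in the controls and 189, 150, 174 and 136 CPM in the CSF1 OE group. CSF1 OE mice 1931 and 1936 lay above all controls, mouse 1932 within their range and mouse 2019 just below it. The spread of the CSF1 OE group (162 ± 23.7 CPM) was larger than that of the controls (144 ± 5.86 CPM, SD, n = 4 each), and the log2 fold change was 0.18 (SE 0.108, 95% interval -0.07 to 0.42, adjusted p = 0.441). Without CSF1 OE mouse 1931 it was 0.10, and with a term for animal numbers 0.09. Its testis retrogene Pgk2 held 0 counts.

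Eno1, the enolase of most tissues (chr4:150236721-150248879), had the highest log2 fold change of the 10 genes. Control mice had 273, 237, 249 and 210 CPM. CSF1 OE mice had 343, 264, 287 and 286 CPM. A single CSF1 OE mouse, 1932, lay within the control range, below control mouse 1827. The means of 242 ± 26.3 and 295 ± 33.7 CPM (SD, n = 4 each) gave a log2 fold change of 0.29 (SE 0.113, 95% interval 0.03 to 0.54, unadjusted p = 0.0318, adjusted p = 0.255). Reads shared with its near-identical copy Eno1b could not be followed, because that symbol is not used in the count data. The unadjusted p of Eno1 was under 0.05 in 12 of 15 alternative fits.

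Pkm, pyruvate kinase, which makes pyruvate and the second ATP of the lower pathway (chr9:59656368-59679375), was the most abundant of the 10 genes. The control mice had 567, 477, 456 and 440 CPM, and the CSF1 OE mice 699, 568, 575 and 523 CPM. Mice 1931, 1932 and 1936 lay above all controls with 1932 only just above, and mouse 2019 lay below control mouse 1827. The group means were 485 ± 56.8 and 591 ± 75.5 CPM (SD, n = 4 each), and the log2 fold change was 0.29 (SE 0.124, 95% interval 0.00 to 0.57, unadjusted p = 0.0472, adjusted p = 0.295). Counts per gene do not separate the M1 and M2 splice forms of Pkm.

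Ldha, which reduces pyruvate to lactate (chr7:46841475-46855627), was at 266, 235, 226 and 201 CPM in the controls and 325, 246, 270 and 255 CPM in the CSF1 OE group. Control mouse 1827 lay above CSF1 OE mice 1932 and 2019, while the other 3 controls lay below all 4. Its means were 232 ± 26.9 and 274 ± 35.7 CPM (SD, n = 4 each), and the log2 fold change was 0.24 (SE 0.120, 95% interval -0.03 to 0.51, adjusted p = 0.358). It was 0.15 without CSF1 OE mouse 1931.

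Hif1a, the regulator (chr12:73901375-73947530), was at 197, 204, 177 and 204 CPM in the controls and 184, 246, 197 and 184 CPM in the CSF1 OE group. Here CSF1 OE mouse 1932 was the highest and mouse 1931, which led most enzymes, was within the control range. With means of 196 ± 12.9 and 203 ± 29.8 CPM (SD, n = 4 each), the log2 fold change was 0.05 (SE 0.111, 95% interval -0.20 to 0.30, adjusted p = 0.832), and without mouse 1932 it was -0.05.

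Divided by the median length of their transcripts, the control levels of the 10 genes ran from Pkm (217 ± 25.4 CPM per kilobase) through Aldoa (168 ± 20.4), Ldha (146 ± 17.0), Eno1 (123 ± 13.4), Gpi1 (80.1 ± 2.82), Pgk1 (78.7 ± 3.21), Hk2 (64.9 ± 12.2), Hif1a (44.6 ± 2.95) and Pfkl (27.9 ± 4.26) to Hk1 (15.7 ± 2.08 CPM per kilobase, SD, n = 4 each). Neighbours in this order whose means differed by less than the sum of their SDs were Aldoa and Ldha, Ldha and Eno1, Gpi1 and Pgk1, and Pgk1 and Hk2.

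The 9 enzymes together took 2184, 2111, 1952 and 1832 CPM in control mice 1827, 1872, 1874 and 1934, and 2639, 2166, 2261 and 2130 CPM in CSF1 OE mice 1931, 1932, 1936 and 2019. Control mouse 1827 lay above CSF1 OE mice 1932 and 2019, so that the groups overlapped. The means were 2020 ± 158 and 2299 ± 233 CPM (SD, n = 4 each), a log2 ratio of 0.19, and 0.11 without CSF1 OE mouse 1931. Without control mouse 1827, 4 genes were higher in every CSF1 OE mouse than in every remaining control (Gpi1, Eno1, Pkm and Ldha) and 1 gene was lower (Hk1), against 12.1% and 6.11% of all genes tested. Control mouse 1934, with the lowest enzyme sum, also had the lowest sum of homeostatic microglia markers among the controls (21514 CPM, against 33277 to 38374 CPM) and the highest of endothelial, oligodendrocyte lineage and neuron markers. CSF1 OE mouse 1931, with the highest enzyme sum, had 31489 CPM of microglia markers and 695 CPM of endothelial markers, both inside the range of its group. The part of other cells in the enzyme sums was not tested.

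**Figure D2:**
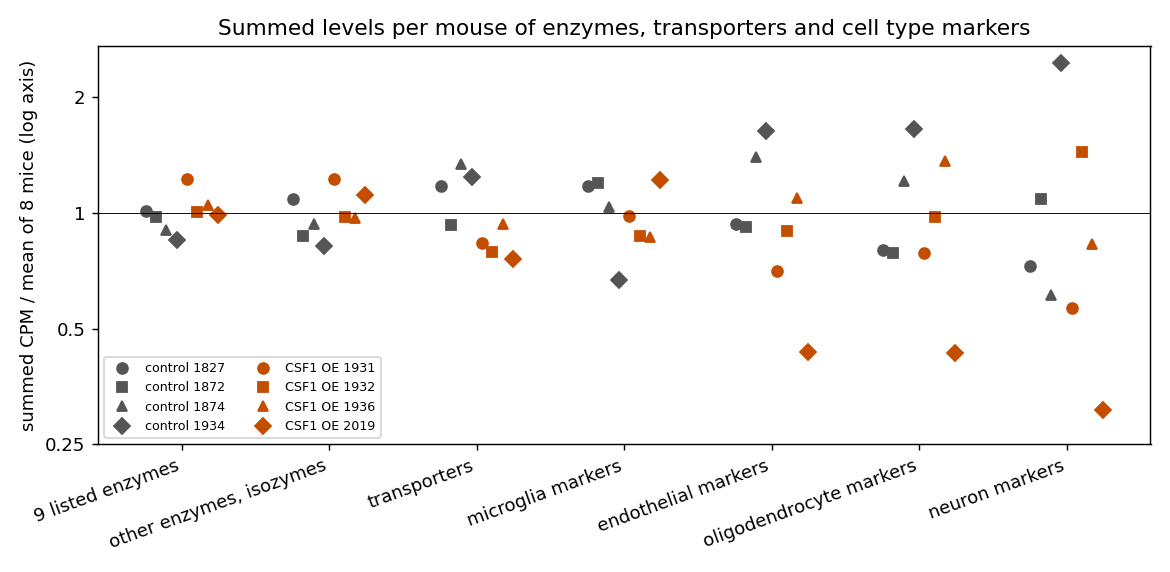
Summed CPM of gene lists in each mouse, divided by the mean of the 8 mice, on a log axis; grey symbols are control and orange symbols CSF1 OE mice. Control mouse 1934 (grey diamond) has the lowest enzyme and microglia marker sums of the controls and the highest endothelial, oligodendrocyte and neuron marker sums, and CSF1 OE mouse 2019 (orange diamond) has the lowest endothelial, oligodendrocyte and neuron marker sums of all 8.

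Animal numbers overlapped with genotype, as the mice numbered 1931 to 1936 were 1 control and 3 CSF1 OE mice and the others 3 controls and 1 CSF1 OE mouse. Within 1931 to 1936, 9 of the 10 genes were higher and 1 lower in CSF1 OE mice, with a median log2 ratio of 0.30, where the lone control was mouse 1934. Among the other mice 5 genes were higher and 5 lower, with a median of -0.03, where the lone CSF1 OE mouse was 2019. Hk1 was lower in CSF1 OE in both ranges, by log2 ratios of -0.50 and -0.35. Eno1 and Pkm were higher by 0.51 and 0.48 within 1931 to 1936, and by 0.18 and 0.06 among the other mice. With a term for the range in the model, 2 of the 10 genes had an unadjusted p under 0.05, Hk1 (log2 fold change -0.43, adjusted p = 0.0378) and Eno1 (0.34, adjusted p = 0.103). That fit called 9.5% of all genes and 0 of the 10. The labels give no batch, and with 1 mouse of a group in each range the values within a range have no replicate error for that group.

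**Figure D3:**
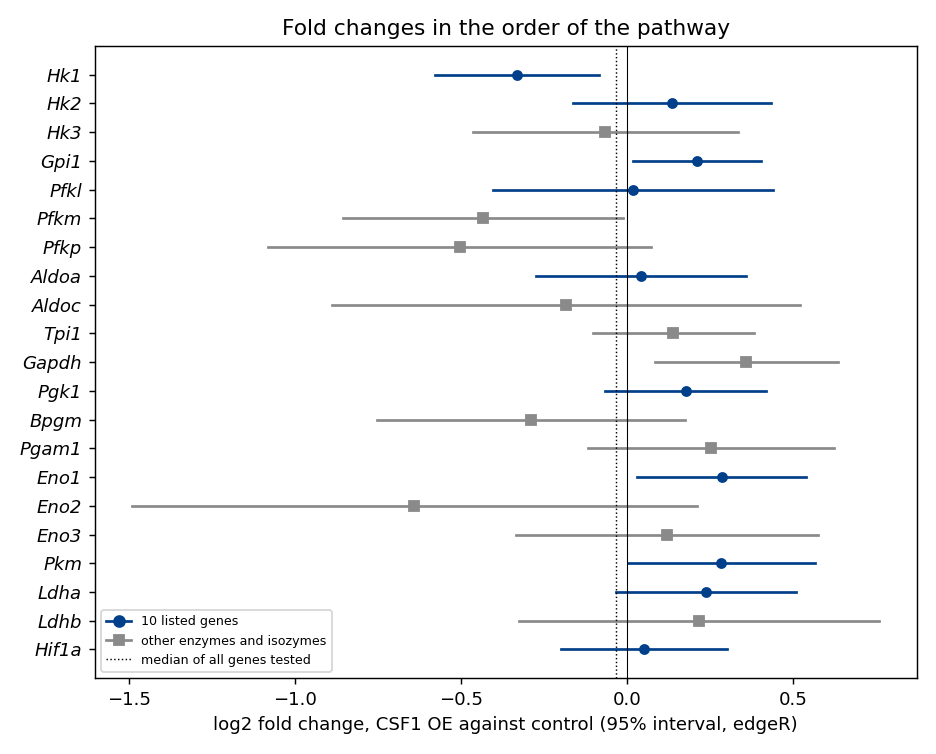
Log2 fold change of CSF1 OE against control for the 10 genes (blue circles) and the other enzymes and isozymes (grey squares) in the order of the pathway, with 95% intervals from edgeR; the dotted line is the median of all genes tested, -0.03. The 10 genes lie between -0.33 and 0.29, and the minor isozymes Pfkm, Pfkp and Eno2 lie to the left of the main isozymes Pfkl and Eno1, with intervals that overlap theirs.

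Enzymes that complete the pathway had log2 fold changes of similar size. Gapdh, which oxidises and phosphorylates the triose, was at 775, 648, 638 and 597 CPM in the controls and 981, 762, 814 and 856 CPM in the CSF1 OE group. Only CSF1 OE mouse 1932 lay within the control range, under control mouse 1827. Its log2 fold change of 0.36 (SE 0.122, unadjusted p = 0.0159, adjusted p = 0.198) exceeded that of each of the 10 genes, and its unadjusted p was under 0.05 in 14 of 15 alternative fits. Log2 fold changes were 0.14 for Tpi1, the triose phosphate isomerase (adjusted p = 0.544), 0.25 for Pgam1, the phosphoglycerate mutase (adjusted p = 0.470), and -0.29 for Bpgm, which diverts a pathway intermediate to bisphosphoglycerate (adjusted p = 0.511).

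Of the 21 other glycolytic enzymes and isozymes, 15 were tested, 7 with a higher and 8 with a lower mean in CSF1 OE mice. The median log2 fold change was -0.04, 0 were called, and an unadjusted p under 0.05 was found for Gapdh in the higher and Pfkm in the lower direction. Pgam2, the muscle mutase, had the highest (0.54, adjusted p = 0.458, at 1.16 CPM in control) and Eno2, the enolase of neurons, the lowest log2 fold change (-0.64, adjusted p = 0.428). The muscle and platelet phosphofructokinases were at -0.43 (Pfkm, SE 0.186, unadjusted p = 0.0444, adjusted p = 0.288) and -0.50 (Pfkp, SE 0.256, adjusted p = 0.364), both with overlapping groups. With the term for animal numbers, 3 of the 15 genes were called, Pfkm (-0.67, adjusted p = 0.0303), Pfkp (-0.91, adjusted p = 0.0249) and Eno2 (-1.14, adjusted p = 0.0344), in a fit that called 9.5% of all genes. Pfkm, Pfkp, Bpgm and Eno2 were each at their highest in control mouse 1934, with 40.2, 38.3, 36.0 and 18.7 CPM, and at their lowest in CSF1 OE mouse 2019, with 18.1, 11.8, 16.9 and 4.16 CPM. Neuron markers, of which 7 of 8 had a lower mean in CSF1 OE, summed to 365 CPM in control mouse 1934 and 45.8 CPM in CSF1 OE mouse 2019, the highest and lowest of the 8 mice, with no marker at 0 in any library. The part of other cells in these isozymes was not tested.

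Isozymes of the same step were compared as shares of that step's summed CPM per kilobase. At the hexokinase step, Hk1 made up 11.8% ± 3.05 in control and 9.13% ± 1.08 in CSF1 OE mice (SD, n = 4 each). Hk2 made up 47.6% ± 4.32 and 52.1% ± 3.45, and Hk3, the hexokinase of myeloid cells, 40.6% ± 5.50 and 38.8% ± 3.95. The step was thus carried mainly by Hk2 and Hk3 transcripts in both groups. At the phosphofructokinase step Pfkl made up 58.4% ± 8.75 and 65.8% ± 9.53, Pfkm 24.3% ± 4.33 and 20.4% ± 5.35, and Pfkp 17.3% ± 4.54 and 13.7% ± 4.36. The Pfkl share was lowest in control mouse 1934 (45.8%) and highest in CSF1 OE mouse 1931 (75.3%).

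Aldoa made up 91.3% ± 2.86 of the aldolase step in control and 92.5% ± 3.21 in CSF1 OE mice, with Aldoc, the aldolase of brain, making up the rest. Eno1 made up 89.7% ± 1.81 and 91.9% ± 0.896 of the enolase step, Eno3, the muscle form, 6.70% ± 1.39 and 6.19% ± 1.003, and Eno2 3.64% ± 2.01 and 1.94% ± 0.842. Ldha was the minor transcript of its step, at 33.5% ± 5.42 and 33.5% ± 5.58 (SD, n = 4 each), while Ldhb, whose product favours the conversion of lactate to pyruvate, made up 66.5% in both groups. For each isozyme of the 5 steps the shares of the 2 groups overlapped.

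**Figure D4:**
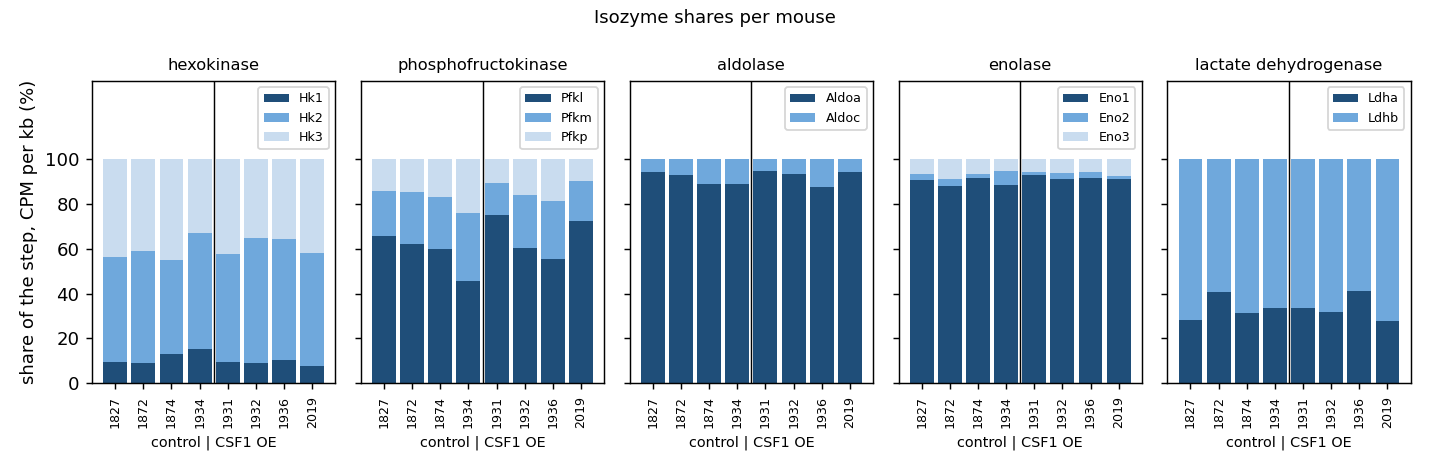
Share of each isozyme in the summed CPM per kilobase of its step, in percent, stacked for each of the 8 mice; the vertical line divides the 4 control mice (left) from the 4 CSF1 OE mice (right). Hk2 and Hk3, Pfkl, Aldoa, Eno1 and Ldhb hold the larger parts in all 8 mice, and the shares overlap between the groups.

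Of 7 regulators of the phosphofructokinase step, 5 were tested, 3 with a higher and 2 with a lower mean, and 0 had an unadjusted p under 0.05 (median log2 fold change 0.21). Their extremes were Pfkfb1 (0.45) and Fbp1 (-0.30), both near 1 CPM. Glucose and lactate transporters had 7 of 9 tested genes lower, a median of -0.33, and 1 gene with an unadjusted p under 0.05 in the higher and 2 in the lower direction, where 10.1% and 6.44% of all genes had one. The lower genes were Slc2a8 (-0.33), a transporter inside the cell, and Bsg (-0.45), the chaperone of lactate transporters, both named after their values were seen. Slc2a6, a transporter of the glucose transporter family, had the largest difference of any gene in the metabolic lists. It was at 8.94, 2.21, 1.29 and 2.78 CPM in the controls and 21.2, 13.2, 8.52 and 16.5 CPM in the CSF1 OE group. Control mouse 1827 lay above CSF1 OE mouse 1936, and the groups otherwise did not overlap. The log2 fold change was 1.96 (SE 0.554, unadjusted p = 0.00642, adjusted p = 0.142). It passed the call with DESeq2 (adjusted p = 0.0111) and without control mouse 1827 (log2 fold change 2.81, adjusted p = 0.0333). The lowest value was that of Slc2a5, a fructose transporter of microglia (-0.62, adjusted p = 0.554), which spread from 126 to 551 CPM over the 8 mice.

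The main glucose transporter Slc2a1 and the lactate transporter Slc16a1, named for their role after their values were seen, were at 343 ± 91.7 and 394 ± 106 CPM in the controls and at 228 ± 75.0 and 262 ± 111 CPM in the CSF1 OE group (SD, n = 4 each). Their log2 fold changes were -0.59 each, with adjusted p = 0.304 and 0.401. With the term for animal numbers Slc16a1 was called (log2 fold change -1.14, adjusted p = 0.0279), as was Bsg (-0.67, adjusted p = 0.0389), while Slc2a1 was not called in any alternative. Slc2a1 and Slc16a1 are also abundant in brain endothelium. All 10 endothelial markers had a lower mean in CSF1 OE, 4 with an unadjusted p under 0.05 against 6.44% of all genes (Ly6c1, Slco1a4, Abcb1a and Tek), with a median log2 fold change of -0.68 and summed levels of 902 to 1603 CPM in the controls and 427 to 1073 CPM in the CSF1 OE group. In the fit with that term, which called 9.5% of all genes, 9 of the 10 markers were called as well. None of these markers was at 0 in any library, and their part in the transporter values was not tested.

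Downstream of pyruvate, differences were small and mostly in the higher direction. Over all genes, an unadjusted p under 0.05 was found for 10.1% in the higher and 6.44% in the lower direction, and the groups did not overlap for 6.84% and 3.45%. Of 13 genes of pyruvate entry to mitochondria, 8 were higher and 5 lower (median 0.12), with 3 and 1 at an unadjusted p under 0.05. Besides the extremes, these were Pdha1 (0.21) and Dld (0.18), subunits of pyruvate dehydrogenase that were named after their values were seen. The extremes were 2 kinases that inhibit pyruvate dehydrogenase, Pdk3 (log2 fold change 0.32, SE 0.103, adjusted p = 0.189) and Pdk2 (-0.32, SE 0.114, adjusted p = 0.213), and the groups did not overlap for either. Pdk4, at -0.19, was called once animal numbers entered the model (-1.14, adjusted p = 0.0348), and is named after its values were seen. It was at 25.1 CPM in control mouse 1934 and at 6.78 to 8.09 CPM in the other controls. Over the alternatives its log2 fold change ran from -1.14 to 0.48. Of 8 genes of the pentose phosphate pathway, which branches off after hexokinase and makes NADPH, 6 were higher and 2 lower (median 0.31), with 4 and 0 at an unadjusted p under 0.05. The 4 were Pgd and, named after their values were seen, G6pdx (0.34), Taldo1 (0.28) and Tkt (0.34). Pgd, which oxidises phosphogluconate, had 125, 124, 112 and 96.5 CPM in the controls and 164, 131, 137 and 156 CPM in the CSF1 OE group, without overlap (log2 fold change 0.36, SE 0.111, adjusted p = 0.167), and Rpia had the lowest value (-0.22, adjusted p = 0.533).

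Of 16 genes of the citric acid cycle, 15 were higher and 1 lower in CSF1 OE mice (median log2 fold change 0.16), 7 had an unadjusted p under 0.05 and the same number did not overlap between the groups, all of them higher, against 10.1% and 6.84% of all genes. Suclg2, a subunit of succinate-CoA ligase, was at 62.6, 56.1, 60.4 and 52.8 CPM in the controls and 81.1, 72.2, 77.9 and 72.8 CPM in the CSF1 OE group. Every CSF1 OE mouse lay above every control, and the log2 fold change of 0.39 (SE 0.0801) had an adjusted p of 0.0626, the lowest of the metabolic lists. Ogdh, of the oxoglutarate dehydrogenase complex, was the lone lower gene (-0.01, adjusted p = 0.932). The 7 genes at an unadjusted p under 0.05 were Suclg2 and, named after their values were seen, Cs, Idh3b, Dlst, Sdha, Sdhb and Sdhc, with log2 fold changes from 0.17 (Idh3b) to 0.39 (Suclg2). No gene of the pyruvate, pentose phosphate and citric acid cycle lists was called in the main test.

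HIF subunits and their regulators were divided in direction, while genes known to be induced by hypoxia outside glycolysis were lower more often than higher, beside 44.8% of all genes tested that were higher. Of 9 HIF subunits and oxygen-sensing genes, 4 were higher and 5 lower (median -0.03). Vhl, which marks HIF subunits for degradation, was at 77.5 ± 11.7 CPM in the controls and 93.6 ± 7.32 CPM in the CSF1 OE group (SD, n = 4 each), a log2 fold change of 0.27 (SE 0.117, adjusted p = 0.288). Epas1, the HIF-2 alpha subunit, which is abundant in endothelium, was at 207 ± 55.0 and 129 ± 38.4 CPM (log2 fold change -0.69, SE 0.256, adjusted p = 0.237). With the term for animal numbers it was called (-1.04, adjusted p = 0.0291), as was Arnt2 (-0.81, adjusted p = 0.0279), named after its values were seen. Arnt2, at -0.23 in the main test, ran from -0.81 to 0.19 over the alternatives. It was at 35.3 CPM in control mouse 1934 and at 13.9 to 16.0 CPM in the other controls. The highest Epas1 values were in control mice 1874 and 1934 (256 and 249 CPM) and its lowest in CSF1 OE mouse 2019 (77.2 CPM), as for the sum of endothelial markers, whose part was not tested. Of 19 genes known to be induced by hypoxia outside glycolysis, 3 were higher and 16 lower (median -0.32), with 0 and 4 at an unadjusted p under 0.05, against 10.1% and 6.44% of all genes. The 4 were Ankrd37 and, named after their values were seen, P4ha2 (-0.58), Ndrg1 (-0.83) and Bhlhe40 (-0.64). Of the 19 genes, 5 were highest among the controls in mouse 1934, and 9 were lowest among CSF1 OE mice in mouse 2019. These were the mice with the highest and lowest endothelial, oligodendrocyte and neuron marker sums. Other genes, among them Ankrd37 and Bhlhe40 (5.14 and 49.2 CPM), were highest among the controls in mouse 1874. That mouse was next to 1934 among the controls in endothelial and oligodendrocyte sums (1371 and 4420 CPM), with the lowest neuron sum (91.3 CPM). In all, 3 genes were both highest of all 8 mice in mouse 1934 and lowest of all 8 in mouse 2019. Ndrg1 was at 55.6 CPM in mouse 1934 and 11.6 CPM in mouse 2019, Plod2 at 13.5 and 2.30 CPM, and Adm at 5.44 and 0.797 CPM, each the highest and lowest of the 8 mice and each named after its values were seen. With the term for animal numbers 4 of the 19 were called (Ndrg1, Plod2, Adm and Bhlhe40), in a fit that called 9.5% of all genes. Ankrd37 was called with DESeq2 (adjusted p = 0.0470), which called 414 genes. The part of other cells in these genes was not tested. Car9, a carbonic anhydrase near 1 CPM, had the highest (0.55, adjusted p = 0.399) and Ankrd37 the lowest log2 fold change (-1.08, SE 0.326, adjusted p = 0.161, from 4.09 ± 1.14 to 1.93 ± 0.656 CPM).

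Marker lists of the other cells that a CD11b pull-down could hold are given by their counts. All 8 border macrophage markers were lower (median log2 fold change -0.44, 5 with an unadjusted p under 0.05 against 6.44% of all genes, which were Cd163, Cbr2, F13a1, Pf4 and Mrc1, from -1.11 for Cd163 to -0.16 for Lyve1), as were all 5 red blood cell markers (median -1.58, from -1.64 for Hba-a1 to -1.46 for Alas2, with 251 to 936 CPM in sum in control and 38.5 to 434 CPM in CSF1 OE mice). Endothelial markers ran from -0.86 (Ly6c1) to -0.38 (Pecam1). Mural markers were lower for 6 of 7 (median -0.20, Acta2 -0.64 to Kcnj8 0.03, which is below 0 with upper-quartile factors), astrocyte markers for 5 of 8 (median -0.19, Gjb6 -0.61 to Gfap 0.88), oligodendrocyte lineage markers for 8 of 10 (median -0.20, with Pdgfra highest at 0.33) and neuron markers for 7 of 8 (median -0.64, Slc17a7 -1.30 to Gad1 0.16). Homeostatic microglia markers were higher for 4 and lower for 6 of 10 (median -0.10, Fcrls -0.63 to Siglech 0.23). Several of these directions changed in some alternative. P2ry12, named after its values were seen, was at -0.23 and ran from -0.38 to 0.10 over the alternatives. Monocyte and neutrophil markers were higher for 6 of 9 (median 0.22, Ly6c2 -0.84 to Plac8 1.70). Their sum was 228 CPM in CSF1 OE mouse 2019, 36.1 to 83.3 CPM in the other CSF1 OE mice and 55.1 to 119 CPM in the controls. Of the higher markers, S100a8, S100a9, Camp, Ngp and Mmp8, named after their values were seen, were each highest of all mice in mouse 2019. Their log2 fold changes fell as low as -1.04 to -1.09 in the alternatives. Of the T, NK and B cell markers 2 were tested, Klrb1c (1.53) and Cd79b (-0.11). No marker was called in the main test. With the term for animal numbers, in a fit that called 9.5% of all genes, calls were made for 9 endothelial, 4 oligodendrocyte lineage, 2 neuron, 2 astrocyte and 1 red blood cell marker. With DESeq2, which called 414 genes, Cd163, Ly6c1, Fcrls and Plac8 were called. Without control mouse 1827, when 164 genes were called, Cd163 and Pf4 were among them. The part of these cells in the glycolysis values was not tested.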

How the data were processed

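RNA of CD11b+ cells was sequenced from 8 mice on 1 sequencing lane, after preparation with a kit that does not keep the strand. According to the methods and the submitters' processing notes, the authors called bases with bcl2fastq 1.8.4, mapped reads with Bowtie 1.0.0 and deposited expected counts per gene from RSEM 1.2.7, with mm10 as the build; the annotation is not given in the sources used here. The authors also deposited a normalized table (a signal unit, made by dividing each mouse's expected counts by 1 factor), which served only for an alternative. Where a read matched several genes, RSEM shared it among them.

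Expected counts were rounded to whole numbers (47 of the 80 values of the 10 genes were not whole, by at most 0.0709% of the value) and tested with edgeR 4.0.16 under R 4.3.3 (TMM, filterByExpr, glmQLFit, glmQLFTest). The model used in the study, EBSeq, was not used here, and its fold thresholds of 0.7 and 1.43 were kept with an adjusted p of 0.05. Shares of the library and counting errors follow from totals of 12053259 to 15475465 counts. The common biological coefficient of variation was 0.228. Groups came from the genotype labels, and 0 columns were unmapped. The p-values set the difference of the groups against the spread between these mice and take the mice as independent. Nothing says how the mice were related, so that this could not be checked. The methods were tested on simulated data whose changes were larger than the differences of the 10 genes. That test does not tell whether differences as small as theirs would be found.

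Gene positions and transcript lengths came from GENCODE M21 on GRCm38, using complete protein-coding transcripts of the basic set, a set chosen after the full set was seen to hold truncated models. Promoter windows came from the RefSeq table of GRCm38.p6, which held all 10 genes. No sequence of the proteins was used here.

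Alternatives were DESeq2 1.42.0, edgeR with upper-quartile factors, a filter of any count at all or of 10 counts per library, limma 3.58.1 on the log2 scale of the normalized table plus a pseudocount of 1 or 0.5, a model term for the animal number range, no fold threshold, and each mouse left out. The 10 genes, the lists and the tests were chosen with earlier results of these data known. Genes named are the 10 genes, the enzymes that complete the pathway or share a step with them, the tested gene with the largest rise and the largest fall of each other list, any gene of a list that is called, and Csf1 and Csf1r; others are stated to be named after their values were seen, and genes given by name for a count of 5 or fewer are of that kind. One gene that the rule would name is not reported here.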

Additional observations from a re-analysis of the deposited data

Results flagged for a closer look

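In groups of 4 mice, a value was singled out where its gap to the nearest other mouse, divided by the range of the group, was above Dixon's critical value. Of 44 groups checked, 2 had such a value, and chance alone gives about 1 in 20. Both concern Pfkl, the liver-type phosphofructokinase. Control mouse 1934 was at 80.3 CPM, below the other 3 controls, with a gap of 0.844 of the range. CSF1 OE mouse 1931 was at 148 CPM, above the other 3 CSF1 OE mice, with a gap of 0.836 of the range. Without mouse 1934 the log2 fold change of Pfkl was -0.07 (adjusted p = 0.894), and without mouse 1931 it was -0.19 (adjusted p = 0.641, edgeR). The same mice had the lowest and the highest sum of the 9 enzymes, at 1832 and 2639 CPM.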

How the results depend on the processing

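None of the 10 genes was called in any of the alternatives. The number of called genes among all genes tested, 59, was 414 with DESeq2, 19 with upper-quartile factors, 104 with limma at either pseudocount, 1273 with the term for animal numbers, and from 3 to 164 with a mouse left out (3 without control 1872 or 1874, 4 without CSF1 OE 1931, 8 without 1936, 10 without control 1934, 18 without CSF1 OE 1932 and 164 without control 1827). Glycolysis genes with an unadjusted p under 0.05 numbered 2 instead of 4 with that term and from 1 to 5 with a mouse left out, the lowest without CSF1 OE 1931. Genes whose groups do not overlap numbered from 0 to 5 with a mouse left out, the highest without control 1827. Without that mouse the groups did not overlap for 12.1% of all genes in the higher and 6.11% in the lower direction. For the other mice left out, these shares of all genes were not counted. The median log2 fold change of the 10 genes ran from 0.12 to 0.18 and the log2 ratio of the enzyme sum from 0.11 to 0.23 with a mouse left out. Isozyme shares, CSF1 OE minus control, ranged over the mice left out from -3.63 to -1.46 percentage points for Hk1, 2.64 to 5.93 for Hk2, 3.23 to 10.9 for Pfkl, 0.346 to 2.76 for Aldoa, 1.65 to 2.91 for Eno1 and -2.48 to 2.49 for Ldha.

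Log2 fold changes changed sign in some alternatives for 13 of the genes named by the rule above. These are given here with their lowest and highest values with a mouse left out. Pfkl (-0.189 to 0.109) was at -0.075 without control 1934, -0.189 without CSF1 OE 1931, -0.004 with upper-quartile factors and -0.002 with limma at either pseudocount. Aldoa (-0.087 to 0.113) was at -0.021 and -0.087 without the same mice. Hif1a (-0.054 to 0.098) was at -0.054 without 1932 and -0.017 with the term. Among other enzymes, Hk3 (-0.197 to 0.043) was at 0.21 with the term, 0.043 without 1872 and 0.002 without 1936, Aldoc (-0.531 to 0.007) at 0.007 without 1874, Eno3 (-0.015 to 0.258) at -0.015 without 1934, and Ogdh (-0.037 to 0.017) at 0.019 with the term, 0.013 without 1827 and 0.017 without 1936. Among the rest, Kcnj8 (-0.238 to 0.484) was at -0.002 with upper-quartile factors, -0.577 with the term and at -0.108, -0.238, -0.054, -0.095 and -0.014 without 1827, 1872, 1931, 1932 and 1936, Pdgfra (-0.1 to 0.679) at -0.346 with the term and -0.1 without 1936, Gad1 (-0.03 to 0.475) at -0.176 with the term and -0.03 without 1932, Cd79b (-0.323 to 0.053) at 0.053 without 1872 and 0.004 without 1874, Csf1 (-0.033 to 0.405) at -0.226 with the term and -0.033 without 1874, and Csf1r (-0.082 to 0.152) at -0.082 without 1934 and -0.046 without 2019. Genes outside that rule changed sign too. Among them, named after their values were seen, were Pdk4 (-1.142 to 0.478 over all alternatives), Arnt2 (-0.806 to 0.19), Tmem119 (-0.361 to 0.278) and Cx3cr1 (-0.198 to 0.321). The cause was not tested, and none of the values with a changed sign given here was called. Genes of the lists that were called with the term are given above, by name or by count. No paired analysis was possible because the groups share no replicate number. With 4 mice a group, a gene that was not called may still differ by an amount within its 95% interval.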
